A study of Mus musculus with 22 samples.

Results

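The microRNA processing genes followed here are the 10 genes Drosha, Dgcr8, Ddx5, Ddx17, Xpo5, Dicer1, Tarbp2, Prkra, Ago1 and Ago2, chosen by gene name from the 22330 genes of the deposited FPKM table, and all 10 were found. FPKM counts the sequenced fragments of a gene relative to the length of its transcript and the depth of the library. The study sequenced RNA of mouse embryonic stem cells grown with serum, LIF, the MEK inhibitor PD0325901 and the GSK3 inhibitor CHIR99021, conditions that all groups shared. The title of the study names the control of pluripotency and differentiation by NF45 and NF90/NF110. NF45, the product of Ilf2, forms RNA-binding complexes with NF90 and NF110.

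There were 22 libraries in 8 groups. NF45 KO and NF45 WT cells gave 2 libraries each, made with a stranded poly(A) mRNA kit; the file header calls the NF45 WT libraries Rev, a word whose meaning the sources used here do not give. NF90+NF110 KO, NF110 KO and NF90/NF110 WT cells (WT below) were used for RIP-seq, in which an antibody against NF90/NF110 pulls down protein with its bound RNA. Each of these genotypes gave 3 immunoprecipitation (IP) libraries and 3 libraries of the input RNA from the same experiments, all made with a stranded ribosomal-depletion kit. The sources used here do not say how many clones stand behind each genotype or whether replicates were separate cultures, although the study's design text calls them biological. Each p-value therefore measures the spread between these libraries only.

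In animals, microRNAs are cut from hairpins in longer transcripts. In the nucleus the RNase III enzyme Drosha and its RNA-binding partner Dgcr8, together called the Microprocessor, release the hairpin, and the RNA helicases Ddx5 and Ddx17 are accessory factors of this step. Xpo5 (exportin-5) carries the hairpin to the cytoplasm, Dicer1 cuts it with the help of the double-stranded RNA-binding proteins Tarbp2 and Prkra, and an Argonaute protein such as Ago1 or Ago2 holds the mature microRNA. Mouse embryonic stem cells that lack Dgcr8 or Dicer1 survive but differentiate poorly. NF90 and NF45 also bind microRNA precursors in other mammalian cells.

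The Dgcr8 transcript is itself a substrate of the Microprocessor, because it contains hairpins. On GRCm38 the gene spans chr16:18253948-18289251, and RefSeq places 2 microRNA hairpins inside it on the gene's own strand. Their mature sequences are shown because Dgcr8 is the member that changed most in NF45 KO cells, with bases 2 to 8, the seed that pairs with targets, in capitals. They lie at chr16:18284248-18284268, chr16:18284288-18284310, chr16:18284562-18284583 and chr16:18284602-18284623 on the minus strand, in the order given (RefSeq, GRCm38.p6).
mmu-miR-1306-3p: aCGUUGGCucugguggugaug
mmu-miR-1306-5p: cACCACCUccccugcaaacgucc
mmu-miR-3618-3p: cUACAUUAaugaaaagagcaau
mmu-miR-3618-5p: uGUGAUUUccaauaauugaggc
Ddx5 (chr11:106780355-106789185) contains a hairpin as well, with mature sequences at chr11:106782695-106782716 and chr11:106782736-106782757 on the minus strand.
mmu-miR-3064-3p: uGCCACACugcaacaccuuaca
mmu-miR-3064-5p: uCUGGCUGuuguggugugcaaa
No pair among these 6 sequences shares a seed. Xpo5 contains the miR-693 hairpin (chr17:46231531-46231619). Levels of the mature microRNAs were not analysed here, so the values below are those of the host genes' longer RNAs.

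Of the other members, Drosha lies at chr15:12824804-12935291, Ddx17 at chr15:79527696-79546764, Xpo5 at chr17:46202811-46243598 and Dicer1 at chr12:104687740-104751968. Tarbp2 lies at chr15:102516077-102523676, Prkra at chr2:76609215-76648220, Ago1 at chr4:126435012-126468707 and Ago2 at chr15:73101625-73184947. The coordinates of 4 members share bases with another measured gene, namely Dgcr8 with Trmt2a (825 bases), Tarbp2 with Map3k12 (928), Ddx5 with Cep95 (546) and Ddx17 with Kdelr3 (44). The sources used here do not say whether reads were counted by strand, so reads of these shared bases cannot be assigned with certainty.

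The NF45 libraries held 49.1 to 68.8 M reads in genes, the IPs 14.1 to 19.03 M and the inputs 9.53 to 11.9 M. Ilf2 was at 3.92 and 3.79 FPKM in NF45 KO, against 264 and 308 FPKM in NF45 WT. Every direction given for the NF90+NF110 KO and NF110 KO genotypes rests on their labels. All 10 embryonic stem cell markers averaged at least 1 FPKM in every group, with a summed level of 4187 to 5521 FPKM, and 10 feeder fibroblast markers summed to 2.26 to 7.79 FPKM. Primitive endoderm markers (6 genes) summed to 3.48 to 12.0 FPKM and trophectoderm markers (6 genes) to 22.7 to 70.6 FPKM.

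The helicases had the highest mean levels among the members in each of the 8 groups. The Dicer1 partners had the lowest in every group except the NF90+NF110 KO inputs, where Tarbp2 averaged 15.3 FPKM and Dicer1 14.1 FPKM with overlapping ranges. In the poly(A) libraries Ddx5 averaged 201 ± 0.146 FPKM in NF45 KO and 207 ± 19.2 in NF45 WT, and Prkra 11.3 ± 0.774 FPKM in NF45 KO and 11.8 ± 0.726 in NF45 WT (SD, n = 2 each). Mean FPKM in NF45 WT placed Ddx5 above Ddx17 (150), then Drosha (77.1), Xpo5 (73.7), Dicer1 (41.0), Ago2 (37.2), Ago1 (29.9), Dgcr8 (22.8), Prkra (11.8) and Tarbp2 (7.53). In this order only the ranges of Drosha and Xpo5 overlapped. Among the 11248 genes that averaged at least 1 FPKM in NF45 WT, Ddx5 stood at the 97.0th percentile, Drosha at the 88.4th, Dgcr8 at the 62.7th and Tarbp2 at the 32.7th.

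In WT inputs the order differed. Ddx17 led at 248 ± 6.23 FPKM (SD, n = 3), ahead of Ddx5 (132), Ago2 (62.3), Drosha (59.4), Xpo5 (52.1), Ago1 (30.1), Dgcr8 (20.8), Dicer1 (16.6), Tarbp2 (12.4) and Prkra (7.10). Only the ranges of Ago2 and Drosha overlapped. Dicer1 stood at the 77.3th percentile in NF45 WT and the 57.4th in WT inputs. The kit, the cell line and the sequencing set all differ between these library sets, so their parts in the change of order cannot be told apart. Prkra rested on the fewest reads, 84 to 129 per input, whereas Ddx17 had 7595 to 11535 per input.

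**Figure D1:**
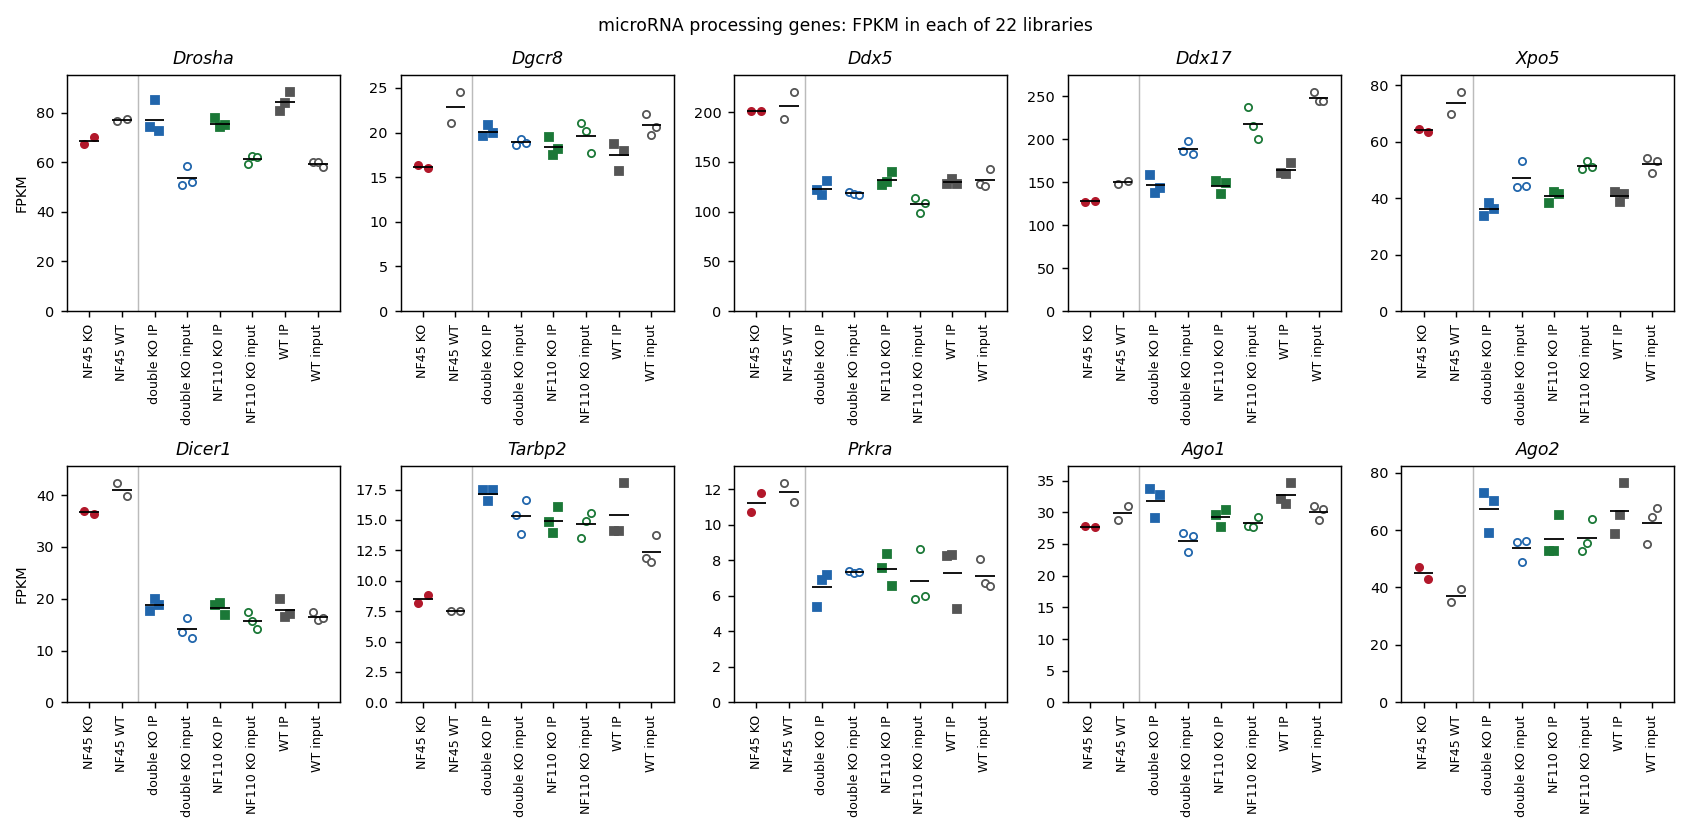
FPKM of the 10 members in each of the 22 libraries (points) with the group mean (line), axes starting at 0, with the NF45 poly(A) libraries left of the grey line and IP (filled squares) and input (open circles) of each RIP-seq genotype right of it. Ddx17 inputs lie between 183 and 255 FPKM and Prkra between 5.25 and 12.3 FPKM over all libraries.

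The comparison of NF45 KO with NF45 WT asks which of these genes respond to the loss of NF45. Dgcr8 and Ddx17, both of the nuclear step, were lower in NF45 KO, and no member passed limma's test as higher. Dgcr8 was at 16.4 and 16.0 FPKM in NF45 KO, against 21.1 and 24.5 FPKM in NF45 WT. Both KO libraries lay below both WT libraries. The change was -0.47 on the log2(FPKM + 1) scale (SE 0.09, adjusted p = 0.0262, limma with Benjamini-Hochberg adjustment over 11481 genes), a fold of 0.724. Ddx17 was at 127 and 129 FPKM in NF45 KO, against 148 and 152 FPKM in NF45 WT. Its KO libraries were again the lower ones, by a smaller step (log2 change -0.23, SE 0.05, adjusted p = 0.0418). The call of Ddx17 was lost with a replicate block (adjusted p = 0.0593), with no FPKM filter (adjusted p = 0.0568), with quantile scaling (-0.16, adjusted p = 0.0764) and with median centring (-0.17, adjusted p = 0.087), whereas that of Dgcr8 was kept in these fits.

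These 2 of 10 members stand against 16% of all tested genes called lower and 11.7% called higher in NF45 KO, and 27.6% called in either direction, so a share of this size is near that of genes in general. The median change of the members was -0.13, beside -0.03 over all tested genes. There were 8 members with no overlap between KO and WT libraries, in a comparison where 72% of all genes had none. Without either KO library limma called 0 of all tested genes. In these fits Dgcr8 had a log2 change of -0.48 without KO library 1 (adjusted p = 0.212) and -0.45 without KO library 2 (adjusted p = 0.224), with the lone KO library assumed to vary like the WT libraries, and Ddx17 had -0.22 (adjusted p = 0.324) and -0.23 (adjusted p = 0.295). Over all 4 fits that left out a library the log2 change was -0.57 to -0.36 for Dgcr8 and -0.25 to -0.205 for Ddx17. It was -0.27 to -0.12 for Xpo5, -0.20 to -0.11 for Dicer1 and 0.18 to 0.36 for Ago2. Each of these fits rests on 1 library in a group. In the authors' deposited table the log2 fold change was -0.47 for Dgcr8 (adjusted p = 0.00109) and -0.25 for Ddx17 (adjusted p = 0.0231), with 31.4% of its genes called.

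Drosha, the enzyme that Dgcr8 serves, was at 67.5 and 70.0 FPKM in NF45 KO, against 76.6 and 77.6 FPKM in NF45 WT, with both KO libraries below both WT libraries. Its log2 change of -0.16 did not pass the test (95% interval -0.31 to -0.01, adjusted p = 0.0963). Ddx5 was at 201 and 201 FPKM in NF45 KO, against 193 and 220 FPKM in NF45 WT, and the WT pair enclosed the KO pair. The export factor Xpo5 was at 64.5 and 63.5 FPKM in NF45 KO, against 69.7 and 77.6 FPKM in NF45 WT (log2 change -0.20, adjusted p = 0.112).

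Of the cytoplasmic genes, none passed limma's test in either direction. Dicer1 was at 37.0 and 36.4 FPKM in NF45 KO, against 42.3 and 39.8 FPKM in NF45 WT (log2 change -0.16, adjusted p = 0.125). Its partners Tarbp2 and Prkra had changes of 0.15 and -0.07 (adjusted p = 0.217 and 0.594). Ago2, the Argonaute that can itself cut a target, was at 47.1 and 43.1 FPKM in NF45 KO, against 34.8 and 39.6 FPKM in NF45 WT. Its KO libraries were both above the WT ones, and its log2 change of 0.27 had the largest size among the 8 members that limma did not call (95% interval 0.04 to 0.51, adjusted p = 0.0863). DESeq2 on reads recovered from the normalised counts called Ago2 higher (0.31, adjusted p = 0.0226), where it called 15.3% of genes higher. The authors' deposited table did not call it (0.27, adjusted p = 0.0642). Ago1 was at 27.8 and 27.6 FPKM in NF45 KO, against 28.8 and 31.0 FPKM in NF45 WT (log2 change -0.10, adjusted p = 0.274).

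Genes near the called members did not share one direction. Trmt2a, which overlaps Dgcr8, was at 16.8 to 18.02 FPKM in NF45 KO and 15.5 to 15.9 FPKM in NF45 WT (log2 change 0.14, adjusted p = 0.194). Kdelr3, which shares 44 bases with Ddx17, was at 29.7 to 32.0 FPKM in NF45 KO and 58.8 to 64.8 FPKM in NF45 WT (log2 change -0.98, adjusted p = 0.00693); its part in the Ddx17 value was not tested. In this comparison the genes of chromosomes 6 and 8 had median changes of -0.48 and -0.50. No member lies on either, and the chromosomes that hold members had medians between 0.00 and 0.05.

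The inputs of the RIP-seq experiments ask the same of NF90 and NF110. No member passed limma's test in any of the 3 comparisons of inputs, where few genes did: 0.209% of 12444 tested genes in NF90+NF110 KO against WT, 0.00804% in NF110 KO against WT and 0.0482% in NF90+NF110 KO against NF110 KO. At an unadjusted p under 0.05 there were 3, 3 and 2 members in these comparisons, beside 1840, 2043 and 1292 of all genes. edgeR's quasi-likelihood test on reads recovered from the normalised counts also called 0 members in each, and 0.193%, 0% and 0.0482% of genes. DESeq2 on the same reads called Ddx17 lower in NF90+NF110 KO, where it called 1.46% of genes lower, and Ddx5 lower in NF110 KO, where it called 1.94% lower. The ribosomal RNA precursor Rn45s was at 914 to 1065 FPKM in NF90+NF110 KO inputs, 1451 to 1745 FPKM in NF110 KO inputs and 1383 to 1651 FPKM in WT inputs, so the NF90+NF110 KO inputs were lower without overlap. Its part in the changes of the inputs was not tested.

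Ddx17 had the largest difference among members between inputs labelled NF90+NF110 KO and WT inputs. It was at 186, 199 and 183 FPKM in NF90+NF110 KO inputs, 238, 216 and 201 FPKM in NF110 KO inputs, and 255, 244 and 244 FPKM in WT inputs. The groups did not overlap, and the NF110 KO inputs lay between the other groups. The log2 change was -0.39 in NF90+NF110 KO against WT (SE 0.08, adjusted p = 0.109 by limma) and -0.19 in NF110 KO against WT (adjusted p = 0.297). The authors' deposited table gives -0.37 for NF90+NF110 KO against WT (adjusted p = 0.00016) in a comparison where it calls 4.94% of its genes. Both comparisons share the WT inputs. Ddx17 was the only member lower without overlap in each of the NF45 KO, NF90+NF110 KO and NF110 KO comparisons with WT. Taken singly, these comparisons had 39.8%, 12.7% and 12.3% of tested genes lower without overlap, in the order given. In either direction, groups without overlap were seen for 21.5% of genes with NF90+NF110 KO and for 22.6% with NF110 KO. The share of genes lower without overlap in every one of these comparisons was not computed, so how unusual Ddx17 is cannot be said.

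Ddx5, the close relative of Ddx17, was at 120, 118 and 116 FPKM in NF90+NF110 KO inputs, 114, 99.0 and 109 FPKM in NF110 KO inputs, and 127, 125 and 143 FPKM in WT inputs. It was lowest in the NF110 KO inputs, with no overlap between the groups. The log2 change was -0.29 in NF110 KO against WT (SE 0.08, adjusted p = 0.173 by limma) and -0.15 in NF90+NF110 KO against WT (adjusted p = 0.419). The authors' deposited table gives -0.29 for NF110 KO against WT (adjusted p = 0.00466), in a comparison where it calls 4.83% of its genes.

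Drosha was at 50.7, 58.4 and 52.2 FPKM in NF90+NF110 KO inputs, 59.4, 62.5 and 62.1 FPKM in NF110 KO inputs, and 60.0, 60.0 and 58.1 FPKM in WT inputs. It was lower in NF90+NF110 KO than in NF110 KO without overlap (log2 change -0.19, adjusted p = 0.44; 14.7% of genes had no overlap there). Dgcr8, which was lower in NF45 KO, was at 18.6, 19.3 and 18.9 FPKM in NF90+NF110 KO inputs, 21.1, 20.2 and 17.8 FPKM in NF110 KO inputs, and 22.1, 19.7 and 20.6 FPKM in WT inputs. Its log2 change was -0.13 in NF90+NF110 KO against WT (95% interval -0.31 to 0.05) and -0.08 in NF110 KO against WT (95% interval -0.26 to 0.10). Whether these differ from its change in NF45 KO was not tested, since the lines and kits differ.

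Tarbp2 was the member with the largest positive difference in both knockouts. It was at 15.4, 13.8 and 16.6 FPKM in NF90+NF110 KO inputs, 13.5, 14.9 and 15.6 FPKM in NF110 KO inputs, and 11.8, 11.6 and 13.8 FPKM in WT inputs. The log2 changes against WT were 0.28 (adjusted p = 0.246) and 0.23 (adjusted p = 0.295). Ago1 was at 26.8, 23.7 and 26.2 FPKM in NF90+NF110 KO inputs, 27.8, 27.6 and 29.3 FPKM in NF110 KO inputs, and 31.0, 28.8 and 30.5 FPKM in WT inputs. Every NF90+NF110 KO input was below every other input, with a log2 change of -0.23 against WT (adjusted p = 0.203 by limma; -0.23 and adjusted p = 0.0376 in the authors' deposited table). Changes of Dicer1, Ago2 and Xpo5 in NF90+NF110 KO against WT were -0.23, -0.21 and -0.14, and that of Prkra was 0.05 (adjusted p = 0.376, 0.392, 0.48 and 0.914).

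Inputs fell into separate levels of chromosome 6 genes that cross the genotypes. Their median deviation was 0.22 to 0.26 (log2) in NF90+NF110 KO input 2, both NF110 KO inputs 1 and 2 and WT input 1, and -0.22 to -0.15 in the other 5 inputs. With this level as a term, chosen after seeing the data, limma called Ddx17 (-0.38, adjusted p = 0.00476), Ago2 (-0.23, adjusted p = 0.032) and Ago1 (-0.23, adjusted p = 0.0475) lower in NF90+NF110 KO against WT, where it called 3.94% of genes lower. In NF110 KO against WT it called Ddx5 lower (-0.28, adjusted p = 0.0447), where it called 2.97% of genes lower. The changes themselves moved by at most 0.02 for these 4 values.

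**Figure D2:**
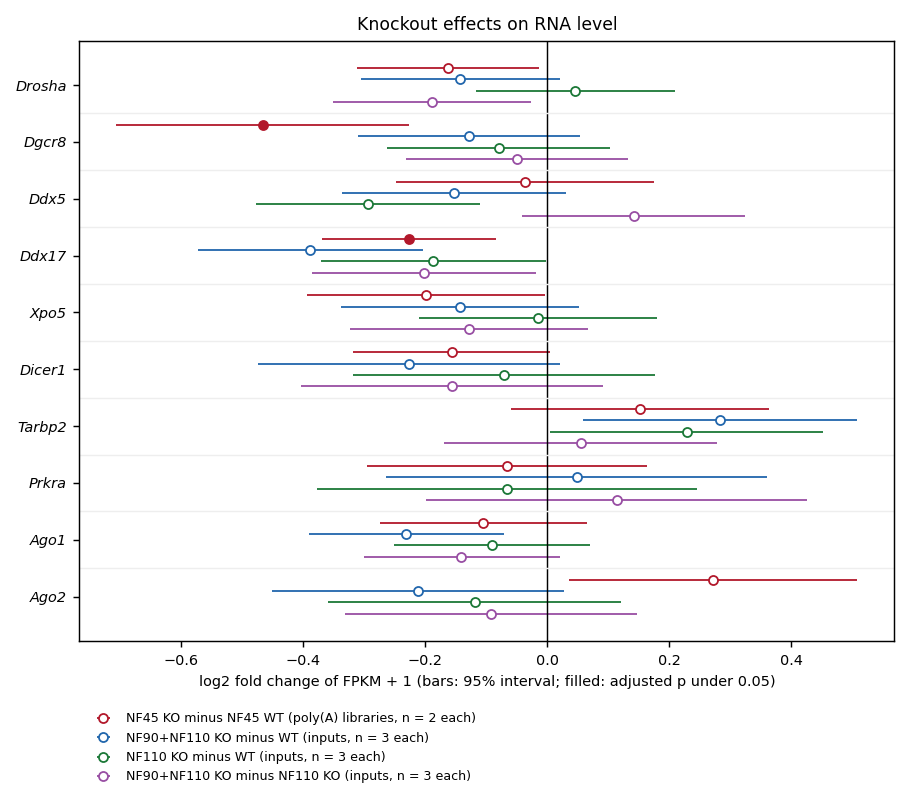
Log2 fold change of FPKM + 1 (points) with its 95% interval (bars) for each member in NF45 KO against NF45 WT and in the 3 comparisons of RIP-seq inputs; filled points passed the test. Only Dgcr8 (-0.47) and Ddx17 (-0.23) in NF45 KO are filled, and all 4 points of Ddx17 lie below 0.

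The IP against its input asks which RNAs came down with the antibody. An IP over input ratio above 1 means that the RNA's FPKM was higher in the IP. The members did not share a direction: Drosha RNA was higher in the IP, and Ddx17 and Xpo5 RNA lower, in every genotype. In NF90+NF110 KO 7 of 10 members were called by limma, 5 higher and 2 lower, against 44.6% of 12693 tested genes (23.4% higher and 21.1% lower). In NF110 KO 5 members were called (3 higher, 2 lower), against 38.1% of genes (21.1% higher and 17% lower). In WT 6 were called (3 higher, 3 lower), against 52.5% of genes (28.9% higher and 23.6% lower). With only 10 members, the share called was near that of all genes in WT and NF110 KO. It was further above that of all genes in NF90+NF110 KO, and the difference was not tested.

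Drosha RNA had IP over input ratios of 1.46, 1.46 and 1.39 in NF90+NF110 KO cells, 1.31, 1.19 and 1.21 in NF110 KO cells, and 1.34, 1.40 and 1.52 in WT. All 9 ratios were above 1, which 18.8% of 12627 genes share, and the ratios in NF90+NF110 KO lay within the range of those in WT. On the log2 scale Drosha was 0.51 higher in the IP in NF90+NF110 KO (SE 0.05, adjusted p = 3.19e-06), 0.30 in NF110 KO (adjusted p = 0.000288) and 0.50 in WT (adjusted p = 2.94e-06). The cells labelled NF90+NF110 KO should lack both proteins that the antibody recognises. The enrichment of Drosha RNA there differed from that in WT by 0.02 (95% interval -0.13 to 0.16, adjusted p = 0.912). This 95% interval allows an enrichment larger in WT by up to 0.13, in ratios that are relative to the depth of each library.

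Ddx17 RNA had ratios of 0.852, 0.693 and 0.783 in NF90+NF110 KO cells, 0.635, 0.630 and 0.745 in NF110 KO cells, and 0.630, 0.653 and 0.705 in WT. All 9 ratios were below 1, as for 14.7% of genes. The log2 difference was -0.37 in NF90+NF110 KO, -0.58 in NF110 KO and -0.59 in WT (adjusted p = 0.000382, 1.67e-05 and 6.64e-06). In the authors' deposited table, made from read counts, it was smaller, at -0.29, -0.47 and -0.43. Xpo5 RNA had ratios of 0.764, 0.721 and 0.814 in NF90+NF110 KO cells, 0.762, 0.791 and 0.815 in NF110 KO cells, and 0.777, 0.791 and 0.782 in WT. It was the steadiest member across genotypes, with log2 differences of -0.38, -0.33 and -0.34 (adjusted p = 2.57e-05, 8.75e-05 and 3.77e-05).

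Dgcr8 RNA had ratios of 1.06, 1.08 and 1.06 in NF90+NF110 KO cells, 0.925, 0.868 and 1.02 in NF110 KO cells, and 0.846, 0.800 and 0.872 in WT. All 3 experiments with NF90+NF110 KO lay above 1 and all 3 with WT below 1. The log2 differences in NF90+NF110 KO (0.08, adjusted p = 0.224) and NF110 KO (-0.09, adjusted p = 0.199) did not pass the test, and the IP was lower than input in WT (-0.24, adjusted p = 0.00213). Ddx5 RNA had ratios of 1.01, 0.992 and 1.12 in NF90+NF110 KO cells, 1.11, 1.31 and 1.29 in NF110 KO cells, and 1.00, 1.06 and 0.898 in WT. It was called higher in the IP in NF110 KO (0.30, adjusted p = 0.00136) and not in NF90+NF110 KO (0.06) or WT (-0.02).

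Dicer1 RNA, like that of Drosha, was above 1 in all 9 experiments, with ratios of 1.31, 1.23 and 1.51 in NF90+NF110 KO cells, 1.08, 1.22 and 1.20 in NF110 KO cells, and 1.13, 1.03 and 1.06 in WT. It was called higher in the IP in NF90+NF110 KO (0.40, adjusted p = 0.000216) and in NF110 KO (0.20, adjusted p = 0.0203), and not in WT (0.10, adjusted p = 0.217). The NF110 KO call was lost without experiment 2 of that genotype (adjusted p = 0.126) or experiment 3 (adjusted p = 0.102), and in the authors' deposited table (0.19, adjusted p = 0.259, with 15.4% of its genes called). Ago1 and Ago2 RNA had ratios of 1.23 to 1.26 and 1.21 to 1.30 in NF90+NF110 KO, where both were called higher (0.30 and 0.32, adjusted p = 0.000135 and 9.48e-05). The call of Ago2 there was lost in the authors' deposited table (0.30, adjusted p = 0.0568, with 23.2% of its genes called). In NF110 KO the ratios were 1.00 to 1.06 for Ago1 and 0.949 to 1.02 for Ago2, and neither was called (0.05 and -0.01, adjusted p = 0.44 and 0.828). In WT the ratios were 1.04 to 1.13 for Ago1, called higher by a small step (0.11, adjusted p = 0.0471), and 1.01 to 1.13 for Ago2 (0.09, adjusted p = 0.0959). The Ago1 call in WT was lost in the authors' deposited table (adjusted p = 0.301, with 27.2% of its genes called) and in 7 of 9 fits that left out an experiment (adjusted p up to 0.248).

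Tarbp2 RNA had ratios of 1.13, 1.20 and 1.05 in NF90+NF110 KO cells, 1.10, 0.931 and 1.03 in NF110 KO cells, and 1.19, 1.22 and 1.31 in WT. It was called higher in the IP in NF90+NF110 KO (0.16, adjusted p = 0.0432) and in WT (0.29, adjusted p = 0.00137). Neither call was made in the authors' deposited table, which gives 0.11 in NF90+NF110 KO (adjusted p = 0.561) and 0.28 in WT (adjusted p = 0.0556). The call in NF90+NF110 KO was also lost in 5 of 9 fits that left out an experiment (adjusted p up to 0.224), among them those without NF90+NF110 KO experiment 1 (adjusted p = 0.134) or 2 (adjusted p = 0.224). Prkra RNA varied most between replicates, with ratios of 0.730 to 0.976 in NF90+NF110 KO, 0.967 to 1.29 in NF110 KO and 0.804 to 1.23 in WT, and was called in none of these genotypes.

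**Figure D3:**
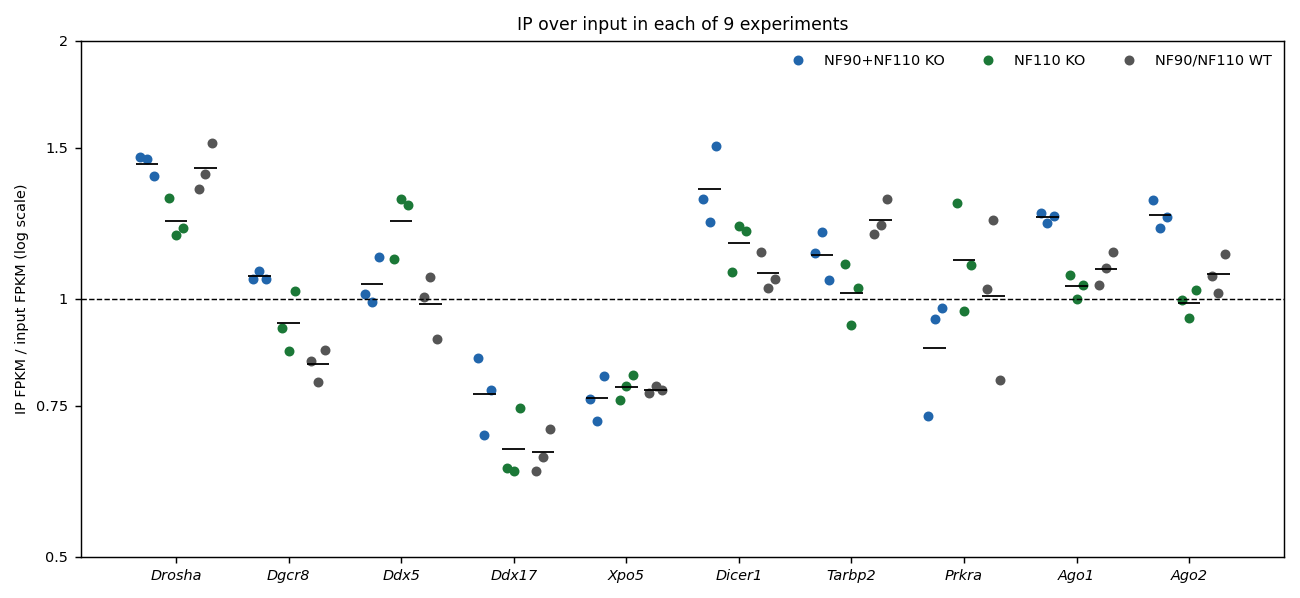
IP over input FPKM ratio (log axis) of each member in each of the 9 experiments, with NF90+NF110 KO, NF110 KO and WT from left to right within a gene, the geometric mean of 3 experiments as a line and a dashed line at 1. All Drosha points lie between 1.19 and 1.52, and all Ddx17 and Xpo5 points below 1.

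Differences in enrichment between genotypes were tested as differences of the log2 IP over input values, with a term for each experiment. Of these differences 4 passed limma's test, all of them positive. Other settings also called negative differences, of Drosha, Ddx5 and Tarbp2, as given below. Dgcr8 had a higher IP over input in NF90+NF110 KO than in WT (difference 0.32, SE 0.08, adjusted p = 0.0296), the only member among 5.82% of genes called in that comparison, and 1.21% called higher. Ddx5 had a higher IP over input in NF110 KO than in WT (difference 0.32, SE 0.08, adjusted p = 0.0286), where 13.3% of genes were called and 6.8% as higher. Ago1 and Ago2 had a higher IP over input in NF90+NF110 KO than in NF110 KO (differences 0.26 and 0.33, SE 0.06 each, adjusted p = 0.0287 and 0.0145), where 9.91% of genes were called and 3.91% as higher. The 3 comparisons share their libraries in pairs, so the 4 values are not independent of each other.

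Several members missed the threshold in limma's main fit, with adjusted p between 0.05 and 0.1. In NF90+NF110 KO minus WT these were Ago2 (0.23, adjusted p = 0.0524), Dicer1 (0.31, adjusted p = 0.0587) and Ago1 (0.19, adjusted p = 0.0897). In NF110 KO minus WT they were Tarbp2 (-0.26, adjusted p = 0.0546) and Drosha (-0.20, adjusted p = 0.0601). In NF90+NF110 KO minus NF110 KO they were Drosha (0.22, adjusted p = 0.0554) and Ddx5 (-0.24, adjusted p = 0.0735). Both edgeR and DESeq2, on the recovered reads, called some of these. In NF90+NF110 KO minus WT both called Ago2 and Dicer1 higher (3.71% and 2.84% of genes higher), and edgeR also Ago1. In NF110 KO minus WT both called Drosha lower (8.7% and 7.3% lower). Median centring called Tarbp2 lower there (1717 of 12693 genes called). In NF90+NF110 KO minus NF110 KO both called Drosha higher (6.94% and 7.12%) and Ddx5 lower (8.41% and 7.67%). There edgeR also called Dicer1 higher. The interval of Xpo5 ran from -0.17 to 0.10 in NF90+NF110 KO minus WT and from -0.13 to 0.15 in NF110 KO minus WT. The median difference of the members was 0.13 in NF90+NF110 KO minus WT, 0.01 in NF110 KO minus WT and 0.18 in NF90+NF110 KO minus NF110 KO, beside -0.01, -0.03 and 0.01 over all genes.

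Each of the 4 calls of limma's main fit was lost in some fits that left out an experiment, where fewer of all genes were called. Where Dgcr8 was lost limma called 13 to 362 of all genes, and where Ddx5 was lost 0. Where Ago1 or Ago2 was lost it called 6 to 396. With all experiments it called 739 (Dgcr8 comparison), 1694 (Ddx5) and 1258 (Ago1 and Ago2). With an experiment left out the differences stayed at 0.29 to 0.35 for Dgcr8, 0.25 to 0.39 for Ddx5, 0.235 to 0.28 for Ago1 and 0.30 to 0.36 for Ago2. Dgcr8 missed the threshold without any WT experiment (differences 0.29 to 0.35, adjusted p = 0.0737, 0.115 and 0.0526 without experiments 1, 2 and 3) and without NF90+NF110 KO experiment 1 or 3 (0.33 each, adjusted p = 0.0966 and 0.0913). Ddx5 missed it without WT experiment 3 (0.25, adjusted p = 0.119) and without NF110 KO experiment 2 or 3 (adjusted p = 0.109 each). Ago1 and Ago2 missed it without NF110 KO experiment 2 (adjusted p = 0.118 and 0.074) or NF90+NF110 KO experiment 1 (adjusted p = 0.103 and 0.077), and Ago1 also without NF110 KO experiment 3 (adjusted p = 0.0699). With no FPKM filter Dgcr8, Ddx5 and Ago1 missed the threshold as well (adjusted p = 0.057, 0.0669 and 0.0508), and with quantile scaling Dgcr8 did (adjusted p = 0.0556). Without the pairing of IP and input none of the 4 was called (adjusted p = 0.199 to 0.543). The unpaired fit called 0, 0 and 1 of 12693 genes in the 3 comparisons. Rn45s was lower in NF90+NF110 KO in the IPs as well, at 1048 to 1218 FPKM, against 1810 to 2308 in NF110 KO IPs and 2270 to 2790 in WT IPs. The ranges of the NF110 KO and WT IPs overlapped. Its part in the differences in enrichment was not tested.

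**Figure D4:**
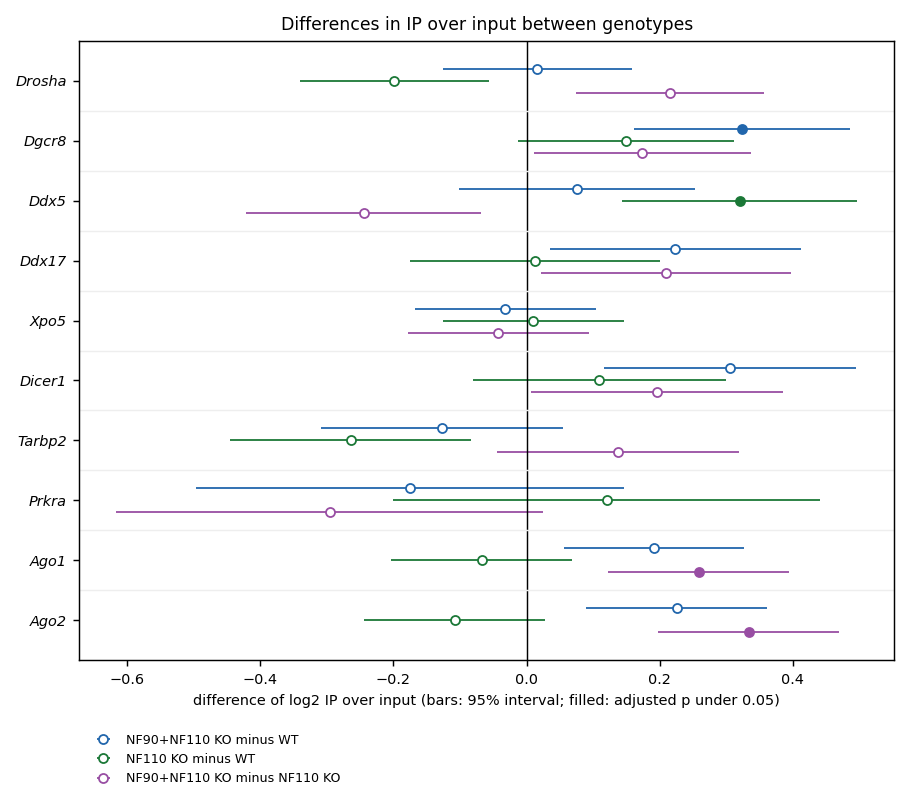
Difference in log2 IP over input between genotypes (points) with its 95% interval (bars) for each member, with filled points for those that passed the test. The filled points are Dgcr8 (0.32), Ddx5 (0.32), Ago1 (0.26) and Ago2 (0.33), and the interval of Drosha in NF90+NF110 KO minus WT encloses 0.

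A list of further genes of microRNA biogenesis, turnover and silencing held 41 names, which matched 39 measured genes, and 38 of these could be tested. In NF45 KO 2 were called higher and 6 lower, beside 11.7% and 16% of all tested genes, with a median change of -0.01 beside -0.03 over all genes. Smad3, a TGF-beta pathway transcription factor, rose by 0.64 on the log2 scale (12.8 FPKM in NF45 KO against 7.90 in NF45 WT) and Trim71, a target of let-7 microRNAs, by 0.24 (21.2 FPKM in NF45 KO against 17.8 in NF45 WT). The nuclease Snd1, a RISC-associated protein, had 79.5 FPKM in NF45 KO and 161 in NF45 WT and passed the test as lower, and the importin Ipo8 had 31.9 FPKM in NF45 KO and 45.1 in NF45 WT (-0.48); both lie on chromosome 6. Cnot1, the scaffold of the CCR4-NOT deadenylase (-0.60), and Smad1 (-0.55) lie on chromosome 8. Adarb1, an RNA-editing enzyme (-0.47), and Gemin5 (-0.41) lie on chromosomes 10 and 11. No gene of this list was called in the 3 comparisons of inputs.

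More of this list were called higher than lower in the IP, with 16 higher and 6 lower of 38 in NF90+NF110 KO cells (23.4% and 21.1% of all genes), 19 and 3 in NF110 KO cells (21.1% and 17% of all genes) and 18 and 6 in WT (28.9% and 23.6% of all genes). The median of the list was 0.10, 0.17 and 0.05 in these genotypes, beside 0.00, 0.01 and 0.02 over all genes. In WT the largest differences were those of the RNA-editing enzyme Adar (0.80), Khsrp, a KH-domain RNA-binding protein (0.66), and Ipo8 (-0.66). Enrichment in NF90+NF110 KO was lower than in WT for Adar (-0.39, adjusted p = 0.0258), the export GTPase Ran (-0.34, adjusted p = 0.0149), Khsrp (-0.29, adjusted p = 0.0347) and Snd1 (-0.26, adjusted p = 0.0312), and higher for none, beside 4.61% of all genes called lower and 1.21% higher. In NF110 KO minus WT 5 genes were higher and 7 lower, beside 6.8% and 6.55% of all genes, led by the splicing factor Hnrnpa1 (0.52, adjusted p = 0.0491) and Fmr1 (0.47, adjusted p = 0.0275) among the higher and the exonuclease Dis3l2 (-0.37, adjusted p = 0.0335) among the lower. In NF90+NF110 KO minus NF110 KO 1 was higher (Trim71, 0.33, adjusted p = 0.019) and 4 were lower, beside 3.91% and 6% of all genes.

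MicroRNA host transcripts, the long RNAs from which hairpins are cut, could be tested for 5 of 11 listed in the NF45 libraries, and 0 were called there. In the RIP-seq set 7 could be tested. In NF90+NF110 KO 4 were lower in the IP, namely H19 (-1.22), Meg3 (-0.47), Mir124a-1hg (-0.42) and Mirg (-0.42), and 2 were higher, beside 21.1% and 23.4% of all genes. In WT 5 were lower, with Mir124a-1hg (-0.98), Mirg (-0.83), Mir17hg (-0.77), Meg3 (-0.77) and H19 (-0.61), and Mirc35hg (0.50) and Mcm7 (0.48), a protein-coding host gene, were higher, beside 23.6% and 28.9% of all genes. Enrichment in NF90+NF110 KO was higher than in NF110 KO for Meg3 (0.69, adjusted p = 0.0206), Mir124a-1hg (0.65, adjusted p = 0.0266), Mirc35hg (0.65, adjusted p = 0.0287) and Mirg (0.61, adjusted p = 0.0405), beside 3.91% of all genes. The part of the Rn45s level in these values was not tested either.

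The genes whose pattern was most like that of 3 members were found by Pearson's r of log2(FPKM + 1) over the 22 libraries, after the mean of each library type was removed, among 10788 genes. They were Zc3h4 (0.88), Cntrob (0.86) and Uhrf1bp1 (0.85) for Drosha, Cog3 (0.91), D7Ertd143e (0.90) and Tmsb4x (0.88) for Dgcr8, and Nf1 (0.91), Ube3c (0.88) and Usp12 (0.87) for Dicer1. By the same measure Drosha and Dgcr8, which act together, had an r of 0.29. These are descriptions, since libraries of a set share their depth and processing.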

How the data were processed

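Mouse embryonic stem cell RNA was measured in 22 libraries. The submitters' processing notes list the mm10 build, HTSeq 0.6.1, Cuffnorm, TopHat2 2.0.10, DESeq2 and Cufflinks 2.2.1, with no roles. The first deposited table holds FPKM of 22330 genes. The second deposited table holds normalised counts (a signal: whole reads divided by a factor per library), and, per the file headers, the authors' DESeq2 log2 fold change with its error, Wald statistic (a score), p-value and its adjusted form for each comparison. After division by each library's smallest nonzero value, 100% of nonzero values came within 0.1 of a whole number; edgeR on those reads called 3120 genes in NF45 KO.

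The values tested were log2(FPKM + 1), so changes of low genes are understated. A gene was kept if 2 or more NF45 libraries, or 3 or more of the RIP-seq set, reached an FPKM of 1; all 10 members passed. limma 3.58.1 (R 4.3.3; trend, robust, two-sided) was fitted to 4 NF45 libraries (2 residual degrees of freedom), 9 inputs (6), and 18 RIP-seq libraries with a term per experiment (6). Genes were called at a Benjamini-Hochberg adjusted p under 0.05. edgeR 4.0.16 and DESeq2 1.42.0 on the recovered reads were alternatives. Scripts were tested on simulated data.

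IP and input are paired by the study's design; after group means were removed, own pairs had correlations of 0.548 to 0.835 over genes. Coordinates come from RefSeq on GRCm38; 21147 genes matched by symbol and 22230 by symbol or synonym. Named genes were all 10 members, the targeted Ilf2, up to 8 called genes of the further pathway list per comparison by size, and 3 most alike genes for Drosha, Dgcr8 and Dicer1; genes that overlap members and host transcripts were added. The members and lists were chosen with earlier results of these data known. The check of the targeted gene of the RIP-seq genotypes is not reported here.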

Additional observations from a re-analysis of the deposited data

Results flagged for a closer look

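Differences in IP over input between genotypes passed limma's test for 4 member values, and these are given here because the same contrast came out differently in 2 genotypes. Dgcr8 differed by 0.32 (log2) between NF90+NF110 KO and WT, with IP over input above 1 in 3 of 3 NF90+NF110 KO experiments and below 1 in 3 of 3 WT experiments. Ddx5 differed by 0.32 between NF110 KO and WT, with every NF110 KO ratio (1.11 to 1.31) above every WT ratio (0.898 to 1.06). Ago1 differed by 0.26 and Ago2 by 0.33 between NF90+NF110 KO and NF110 KO, with every NF90+NF110 KO ratio above every NF110 KO ratio for both genes. The ratios come from the same values that the test used, so their separation adds no further support to the calls. The share of all genes with ratios separated in this way was not computed. In all, 30 such differences (10 members in 3 comparisons that share libraries) were tested, and p-values were adjusted over all 12693 genes. Groups of 2 or 3 libraries are too small for a test of single outlying libraries.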

How the results depend on the processing

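For NF90+NF110 KO minus WT (1 called) the count was 0 with no FPKM filter, 4 by edgeR, 3 by DESeq2 and 0 without the replicate block of paired IP and input, and 0 to 4 when an experiment was left out. For NF110 KO minus WT (1 called) it was 0, 2, 2 and 0 under the same settings, 2 with median centring, and 0 to 3 with an experiment left out. For NF90+NF110 KO minus NF110 KO (2 called) it was 1, 5, 4 and 0, and 0 to 4 with an experiment left out. The number of all genes called moved as well. In these 3 comparisons, in this order, limma called 5.82%, 13.3% and 9.91% of genes, edgeR 9.2%, 19.4% and 15.4%, and DESeq2 8.06%, 15.3% and 14.8%. With no filter limma called 214, 0 and 320 of 18789 genes, and without the block 0, 0 and 1 of 12693. For NF45 KO against NF45 WT (2 called) the member count was 1, Dgcr8, with no filter, quantile scaling, median centring or a replicate block. These fits called 2847 of 18192 genes, then 3251, 3118 and 2960 of 11481. DESeq2 on the recovered reads also called Ago2 higher, where it called 15.3% of genes higher. The block used numbers only, and the libraries of like number correlated at 0.245. Fits with an NF45 library left out rest on 1 library in a group, and their counts are not given here. For inputs (0 called) DESeq2 called 1 and the chromosome 6 term, chosen after seeing the data, 3 in NF90+NF110 KO against WT and 1 by each in NF110 KO against WT; the count was 0 under all settings in NF90+NF110 KO against NF110 KO. Counts for IP against input stayed within 1.5 times, at 6 to 7 in NF90+NF110 KO, 4 to 5 in NF110 KO and 5 to 6 in WT with an experiment left out. The calls of Drosha, Ddx17 and Xpo5 in the IP held in all 17 alternatives in each genotype. Over all members and settings, 1585 values kept direction and side of the threshold, 55 lost and 34 gained a call, and 36 uncalled values changed sign; no called value changed sign. The causes were not tested. Inputs of like number in different genotypes correlated at -0.477 to 0.656, so no pairing across genotypes was assumed. Depth limits Prkra most (84 to 129 reads per input), and 2 libraries a group limit the NF45 comparison.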
